A study of Mus musculus with 9 samples.

Results

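The genes described here are 7 mouse markers used to recognise mammary stem and progenitor cells: Cd24a, Cd44, Thy1, Prom1, Procr, Aldh1a1 and Aldh1a3. Their peaks were chosen by position alone: a peak belonged to a gene if its centre lay in the gene body or within 50 kb of either end, and 118 of 146734 peaks did so. The assay was ATAC-seq, in which a transposase inserts adapters into open DNA, so that the reads in a peak report how open that stretch was. The cells were D2A1-d, a murine breast carcinoma line with a wild-type genotype label, grown in medium with serum and otherwise untreated. All 9 libraries came from transduced cells, and 3 libraries each carried a non-targeting control hairpin (NTC), the short hairpin RNA shMed4 #1, or the short hairpin RNA shMed4 #4. Med4 encodes a subunit of Mediator, the complex that links enhancer-bound factors to RNA polymerase II. Values are normalised read counts per peak of equal width, made by the authors, and log2 folds are on the scale of log2 of the value plus 1. The title of the study names metastatic dormancy, and the comparison asks what changes in chromatin when Med4 is targeted. The sources used here do not state whether each hairpin line was a pool or a single clone, and accessibility values do not measure how far MED4 itself was reduced.

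These genes are known as markers rather than as a pathway. CD24 is a small glycoprotein anchored in the membrane by lipid, and CD44 is the receptor for hyaluronan; their levels together are used to sort mammary cell fractions and breast cancer stem-like cells. THY1 is another lipid-anchored glycoprotein of mesenchymal and basal cells, prominin-1 (CD133, from Prom1) is a pentaspan protein of membrane protrusions, and PROCR is the endothelial protein C receptor, which marks a multipotent fraction of the mouse basal layer. ALDH1A1 and ALDH1A3 oxidise retinaldehyde to retinoic acid and are the usual sources of the aldehyde dehydrogenase activity by which such cells are sorted.

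Libraries held 44.8 to 98.9 M reads in peaks, and the median peak held 110 to 247 reads, and library pairs within a group differed by more than counting noise, so none was merged. The labels call them biological replicates, and p-values here speak only of how these libraries vary. Of 7 simple epithelial markers, 6 had no peak within 1 kb of their start (Krt8, Krt19, Epcam, Cdh1, Cldn4 and Cldn7), and Krt18 had a low one, while 6 of 7 mesenchymal markers had one, led by Vim at 4155 and S100a4 at 3053 in NTC. A start-site peak was present at 3 of 7 leukocyte markers and 1 of 5 endothelial markers, none above 607 in NTC and with no peak at Ptprc or Pecam1. It was present at 4 of 7 basal markers, which did not move together. In NTC, #1 and #4, Acta2 was 132, 634 and 705, Krt14 344, 644 and 547, and Oxtr 427, 525 and 468. Mylk went the other way, at 1115, 669 and 958. Summed marker values in NTC, #1 and #4 were 1366, 1343 and 1124 for leukocyte, 239, 433 and 282 for endothelial, 2018, 2471 and 2678 for basal, 164, 368 and 465 for simple epithelial, and 13899, 12136 and 12139.9 for mesenchymal markers. Their part in the changes at the member genes was not tested. Chromosome 2, which carries Cd44 and Procr, shifted as a whole: the median log2 fold over its 11557 peaks was -0.25 with both hairpins, -0.32 with #1 and -0.16 with #4. On the chromosomes of the other members this median lay between -0.02 and 0.06 with both hairpins. On chromosome 10, which carries Cd24a, it was 0.05 with #1, -0.08 with #4 and -0.13 for #4 against #1. Folds at Cd44 and Procr are therefore also given with the median shift of each chromosome removed. So are some folds of other genes where the call or the size depends on such a shift. This alternative was added after the data were seen.

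Promoter sequences tell where the peaks at these genes stand. RefSeq (GRCm38.p6) gave a start and the bases before it for 4 of the 7 genes, at 6 starts, and a peak overlapped 3 of them; these 3 are shown as the 250 bases before the start, read 5′ to 3′ on the gene's strand, with motif matches in capitals.
Cd44, chr2:102901666-102901915, minus strand: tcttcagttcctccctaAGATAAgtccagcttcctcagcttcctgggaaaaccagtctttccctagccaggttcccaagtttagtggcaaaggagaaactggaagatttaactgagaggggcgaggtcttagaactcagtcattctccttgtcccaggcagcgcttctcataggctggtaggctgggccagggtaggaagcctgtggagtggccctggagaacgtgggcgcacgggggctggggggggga
Procr, chr2:155750967-155751216, plus strand: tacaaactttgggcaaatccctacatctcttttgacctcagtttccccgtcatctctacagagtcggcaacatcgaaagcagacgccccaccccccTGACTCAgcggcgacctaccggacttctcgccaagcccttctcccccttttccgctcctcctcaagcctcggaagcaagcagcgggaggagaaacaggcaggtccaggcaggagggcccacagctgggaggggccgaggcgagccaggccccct
Aldh1a1 internal start, chr19:20601718-20601967, plus strand: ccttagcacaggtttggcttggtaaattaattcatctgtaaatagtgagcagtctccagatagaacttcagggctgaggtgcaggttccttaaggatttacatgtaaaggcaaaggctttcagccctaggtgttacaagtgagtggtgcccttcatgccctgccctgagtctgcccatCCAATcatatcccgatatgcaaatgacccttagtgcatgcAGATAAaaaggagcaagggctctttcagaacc
The motifs searched on both strands were the TATA letters TATAAA, the CCAAT box, the GC box GGGCGG, the AP-1 letters TGANTCA, the TEAD letters GGAATG, the Snail and Zeb letters CACCTG, the ETS letters CCGGAAGT and the GATA letters AGATAA. The capitals in Cd44 are AGATAA, at 233 to 228 bases before the start, in the part its peak does not cover: the peak overlaps the 105 bases nearest to the start. In Procr they are a TGANTCA match at 154 to 148 bases before the start, inside the peak, which covers all 250 bases. In the internal start of Aldh1a1, also wholly under its peak, they are CCAAT and AGATAA. Among 32851 promoters read the same way, 6.7% held TGANTCA, 10.0% AGATAA and 33.8% CCAAT. The letters TGANTCA were also found before both starts of Prom1 and before the outermost start of Aldh1a1, which no peak overlapped. GC content was 61.6% in Procr with 13 CpG, 56.4% in Cd44 with 5, and 46.4% at the internal start of Aldh1a1 with 1, against medians of 52.4% and 6 over all promoters.

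Accessibility changed at every one of the 7 genes, and the direction differed between them. With both hairpins against NTC, 22 of the 118 peaks rose and 41 fell (limma, Benjamini-Hochberg adjusted p under 0.05 over all peaks). That is 53.4% called, beside a background of 54.1% of all 146729 peaks tested, 27.9% higher and 26.2% lower. The share called was thus near that of the genome, and the median log2 fold was -0.10 beside -0.02 over all peaks. The excess of lower over higher calls depends on the scaling: it was 34 higher and 29 lower with start-site peaks centred, 16 and 57 with other peaks centred, 21 and 51 with each chromosome centred, and 29 and 37 with chromosome shifts removed. Centring on start-site peaks moved the median of all peaks to 0.10, and centring on other peaks moved it to -0.12.

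Peaks called with each hairpin in the same direction numbered 13 higher and 24 lower, beside 17.6% and 13.5% of all peaks. Of the lower ones, 5 were at Cd44 and 8 at Procr, on chromosome 2, and the shift of that chromosome is not removed in these counts. By gene, higher and lower calls with both hairpins were 0 and 6 of 9 at Cd24a, 0 and 8 of 12 at Prom1, and 7 and 0 of 15 at Thy1. At Cd44 they were 5 and 9 of 27, at Procr 2 and 11 of 22, at Aldh1a1 4 and 5 of 14, and at Aldh1a3 4 and 2 of 19. Under the 5 other scalings the lower calls outnumbered the higher at Cd24a and Prom1 and the higher outnumbered the lower at Thy1. At the other 4 genes the order turned under at least 1 scaling: with chromosome shifts removed it was 10 higher and 5 lower at Cd44, 8 and 5 at Procr, and 2 and 6 at Aldh1a3, and with start-site peaks centred it was 5 and 4 at Aldh1a1. A change of at least 2-fold was rare: 5 peaks were at least 2-fold higher, 3 of them at Thy1, and 1 was at least 2-fold lower, at Procr, beside 5.97% and 0.96% of all peaks.

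**Figure D1:**
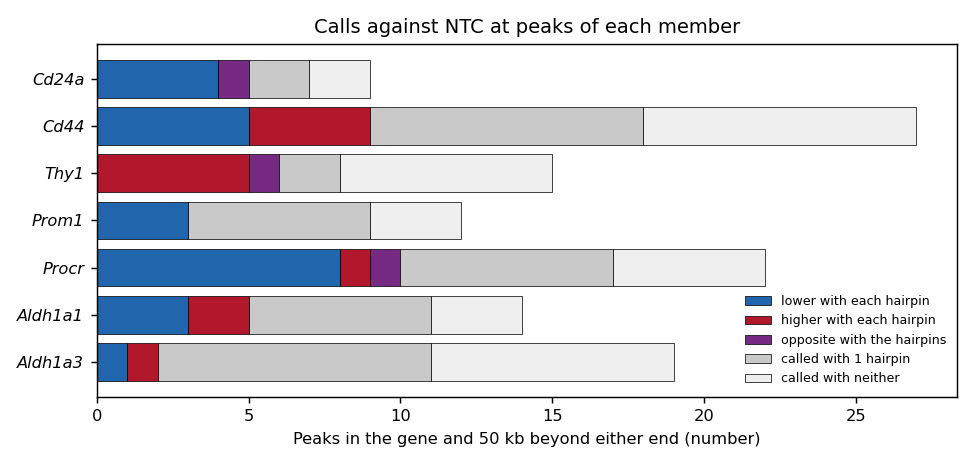
Number of peaks of each member gene (x axis) by call against NTC with either hairpin (limma, adjusted p under 0.05). Thy1 has 5 peaks higher with each hairpin and none lower with each, Procr has 8 lower with each and 1 higher, and 37 of the 118 peaks were called with neither. Chromosome shifts are not removed, which bears on Cd44 and Procr on chromosome 2.

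**Figure D2:**
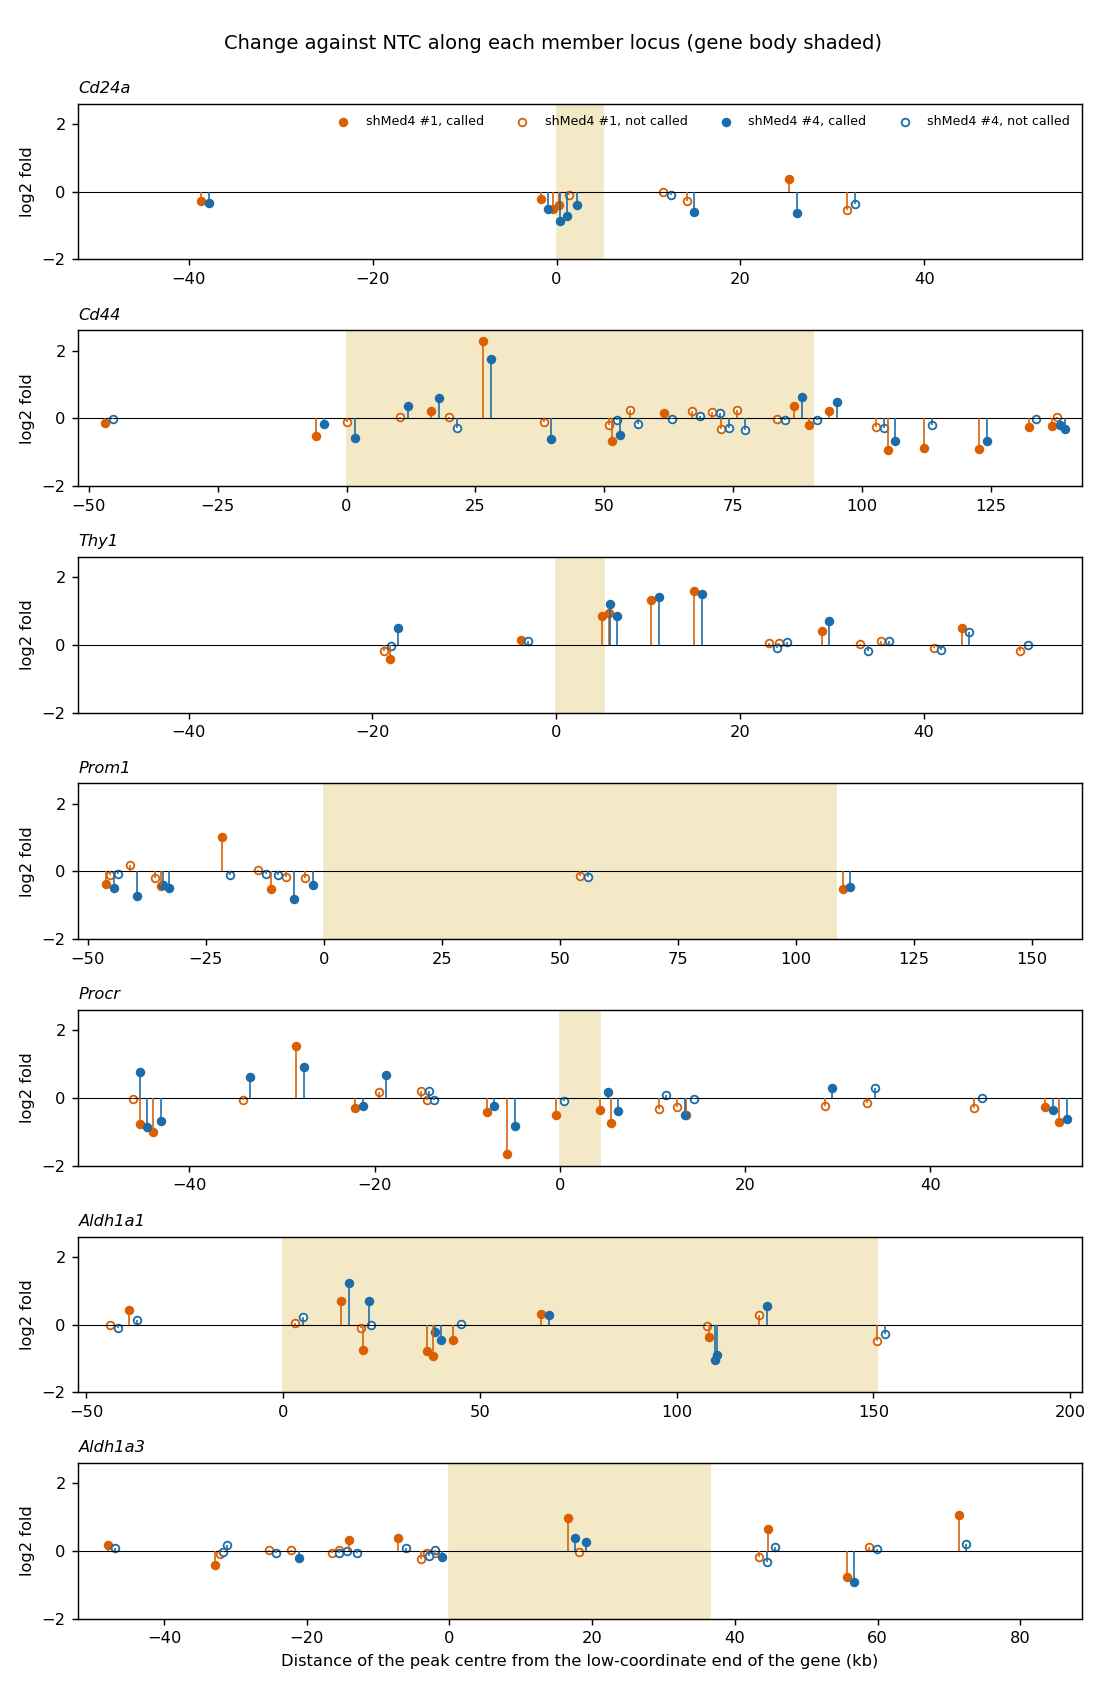
Log2 fold against NTC (y axis) of each peak by the distance in kb of its centre from the low-coordinate end of the gene (x axis, gene body shaded), with the 2 hairpins drawn slightly apart and filled points called. The changes at Thy1 gather just beyond its high end, while those at Cd44 run up and down within a single gene body.

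Cd24a, the glycoprotein whose low level goes with the CD44-high fraction in sorting, became less accessible. It lies at chr10:43579169-43584265. Over all libraries the strongest peak of its window was chr10:43540711-43541212, at the start of Mtres1, with a mean of 1312. In NTC the strongest was the peak at the low-coordinate end of Cd24a, chr10:43578921-43579422. Normalised counts were 1431, 1493 and 1697 in NTC, 974, 1121 and 1177 with hairpin #1 and 785, 819 and 912 with hairpin #4. The groups did not overlap, and #4 was lowest. The means were 1540.3 ± 139, 1091 ± 105 and 839 ± 65.6 (SD, n = 3), and the log2 fold with both hairpins was -0.69 (SE 0.06, limma adjusted p = 2.32e-12). The next peak inward, chr10:43579615-43580116, fell by 0.55 on the log2 scale and the peak 1.32 kb outside the low end fell by 0.36, again without overlap between groups. Inside the gene, chr10:43580741-43581242 was -0.38 with #4 (adjusted p = 1.42e-05), and -0.09 with #1 (adjusted p = 0.299). Its call with both hairpins was lost with start-site peaks centred, at -0.12.

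Among the Cd24a peaks the hairpins parted at chr10:43604667-43605168, 20.7 kb beyond the high end. In the NTC libraries its normalised count was 183, 189 and 185, with hairpin #1 229.7, 256 and 234, and with hairpin #4 103, 118 and 139. Hairpin #1 lay above NTC and #4 below it, with log2 folds of 0.37 and -0.64 (limma adjusted p = 0.012 and 4.34e-05). Between the hairpins, 5 of the 9 Cd24a peaks were lower with #4 and 0 higher, also under the 5 other scalings. The median log2 fold of the 9 for #4 against #1 was -0.30, and -0.18 with chromosome shifts removed. Over all peaks 41.6% were called between the hairpins, 21.2% lower and 20.4% higher.

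Cd44, the hyaluronan receptor, showed opposite changes along its locus, and the largest rise of the 118 peaks lay inside it. The gene lies at chr2:102811141-102901669 on the minus strand and has 27 peaks, 17 of them in the gene body. The rise was at chr2:102838172-102838673, 63.2 kb into the gene. It held 224, 206 and 218 normalised reads in NTC, 1109, 1076 and 990.3 with #1 and 759, 723 and 732 with #4. All hairpin libraries lay far above NTC, and #1 lay above #4. The means were 216 ± 9.16, 1058 ± 61.3 and 738 ± 19.2 (SD, n = 3), or 4.89-fold and 3.41-fold of NTC. The log2 fold with both hairpins was 2.02 (SE 0.06, limma adjusted p = 7.84e-26), and 2.25 with chromosome shifts removed.

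The Cd44 start site itself moved little. Its peak, chr2:102901269-102901770, overlaps the promoter bases printed above. The NTC libraries held 1972, 2037 and 2007 normalised reads there, the #1 libraries 1657, 1689.7 and 1863, and the #4 libraries 1712, 2008 and 2106. The #1 libraries lay below NTC, while #4 spanned the NTC range. The log2 fold with both hairpins was -0.13 (SE 0.05, adjusted p = 0.0314), -0.21 with #1 and -0.05 with #4 (adjusted p = 0.49). The call with both hairpins was lost when any NTC library, #1 replicate 1 or 2, or #4 replicate 1 was left out, at -0.14 to -0.09, and turned to 0.09 (adjusted p = 0.14) with chromosome shifts removed.

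On either side of that start 2 peaks rose: chr2:102898459-102898960, 2.96 kb into the gene, and chr2:102905286-102905787, 3.87 kb before it. Inside, the normalised count was 581, 561 and 601 in the NTC libraries, 709.9, 778 and 736 with hairpin #1 and 826, 923 and 944 with hairpin #4. Before the start it was 469.7, 464 and 475 in the NTC libraries, 548, 569 and 517 with hairpin #1 and 663, 657 and 635 with hairpin #4. The 3 groups stood in the order NTC, #1, #4 without overlap at each, with log2 folds of 0.49 and 0.34 with both hairpins, or 0.71 and 0.56 with chromosome shifts removed. Further into the gene, chr2:102828109-102828610 rose by 0.41 and chr2:102821968-102822469 by 0.21, while chr2:102863190-102863691 fell by 0.58 (adjusted p = 8.41e-08). With chromosome shifts removed these folds were 0.64, 0.43 and -0.36. At chr2:102821968-102822469 hairpin #1 alone was 0.05 (adjusted p = 0.535), and 0.35 (adjusted p = 4.44e-06) with those shifts removed.

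Farther before the Cd44 start, peaks fell. At chr2:102916578-102917079 the means were 110.4 ± 5.23, 57.0 ± 6.41 and 68.9 ± 7.34, a log2 fold of -0.81. At chr2:102934239-102934740 they were 127 ± 2.15, 67.6 ± 9.31 and 81.0 ± 15.8, a log2 fold of -0.79. Neither peak's hairpin libraries overlapped NTC, and the falls were -0.59 and -0.57 with chromosome shifts removed. The strongest of all member peaks, chr2:102943916-102944417, 42.5 kb before the start, had means of 5367 ± 64.9, 4515 ± 116 and 5308 ± 214. Its log2 fold was -0.13 with both hairpins and -0.02 with #4 (adjusted p = 0.778), and 0.09 (adjusted p = 0.0504) with chromosome shifts removed.

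Thy1, the lipid-anchored glycoprotein, gained accessibility in a run of peaks beyond its high-coordinate end. The gene lies at chr9:44043384-44048579, no peak centre falls in the gene body, and no strand was given for it, so whether that end is the start is not stated here. At the end itself lies chr9:44048586-44049087. Normalised counts were 93.6, 92.4 and 117 in NTC, 191, 197 and 161 with hairpin #1 and 232, 212 and 256 with hairpin #4. The groups did not overlap, and the log2 fold with both hairpins was 1.03 (SE 0.11, limma adjusted p = 8.55e-10). These are low values: the NTC mean of 101 ± 13.9 stands at the 30.4th percentile of all peaks.

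Farther out from Thy1 the fitted rise was larger. At chr9:44053890-44054391, 5.56 kb beyond the end, the means were 132 ± 20.3, 332 ± 8.56 and 354 ± 16.7, a log2 fold of 1.38 (adjusted p = 1.54e-15). At chr9:44058586-44059087, 10.3 kb beyond it, the normalised count was 44.4, 59.6 and 67.9 in the NTC libraries, 165, 169 and 179 with hairpin #1 and 169.5, 156 and 162 with hairpin #4. Each hairpin library was above each NTC library, the hairpins overlapped, and the log2 fold was 1.55 (SE 0.13, adjusted p = 2.53e-12). Between the end of the gene and these peaks, chr9:44049339-44049840 rose by 0.89. The peak chr9:44058586-44059087 lies closer to the start of Usp2, the next gene, than to Thy1.

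Other Thy1 peaks moved less or apart. The strongest, chr9:44039709-44040210, had means of 1841 ± 119, 2051 ± 46.8 and 2001 ± 142, a log2 fold of 0.14 (adjusted p = 0.0137). That call was lost without NTC replicate 1 (0.10) or NTC replicate 3 (0.12), and the value was -0.04 with each chromosome centred. With chromosome shifts removed the call was also lost, at 0.06 (limma adjusted p = 0.276). At chr9:44025523-44026024, 17.6 kb outside the low end, the normalised count was 159, 152 and 171 in the NTC libraries, 120.0, 135 and 105 with hairpin #1 and 208, 251 and 220.5 with hairpin #4. Hairpin #1 was below NTC (-0.42) and #4 above it (0.49), with no overlap. Of the 15 peaks, 6 had Thy1 as their nearest gene, and 7 lie inside another gene, among them 2 that rose.

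Prom1, which encodes prominin-1, had no peak within 1 kb of its start and a single peak in its body. It lies at chr5:43993621-44102047 on the minus strand. The peak nearest to the start was chr5:44104035-44104536, 2.24 kb before it. In the NTC libraries its normalised count was 112, 125 and 124, with hairpin #1 72.8, 80.3 and 97.9, and with hairpin #4 93.4, 94.6 and 74.1. The hairpin libraries lay below NTC and overlapped each other, and the log2 fold was -0.50 (SE 0.15, limma adjusted p = 0.00424). The peak inside the gene, chr5:44048488-44048989, was -0.16 (adjusted p = 0.465).

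Most Prom1 peaks lay beyond its far end, and 3 of the 12 peaks had Prom1 as their nearest gene. There chr5:43948101-43948602 fell by 0.42 with both hairpins and chr5:43959802-43960303 by 0.46, each with no overlap between NTC and hairpin libraries. chr5:43986199-43986700 was -0.83 with #4 (adjusted p = 2.99e-11) and -0.15 with #1 (adjusted p = 0.101). The reverse order held at chr5:43982911-43983412, at -0.52 with #1 (adjusted p = 3.31e-09) and -0.12 with #4 (adjusted p = 0.0991). With chromosome shifts removed, #4 was -0.15 there and passed (limma adjusted p = 0.0445). The strongest peak, chr5:43948918-43949419, had means of 2923 ± 148, 2727 ± 79.0 and 2768 ± 164, and its groups overlapped. It did not pass the test (log2 fold -0.09, limma adjusted p = 0.0856). It passed without NTC replicate 1 (-0.13) or #4 replicate 3 (-0.11), and with chromosome shifts removed, at -0.10 (adjusted p = 0.0426).

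By p-value the clearest difference between the hairpins at Prom1 was in chr5:43953036-43953537. It held 296, 291 and 326 normalised reads in NTC, 366, 335 and 331 with #1 and 183, 162 and 203 with #4. Hairpin #4 lay below NTC and #1 above it, and #4 against #1 was -0.91 (SE 0.10, limma adjusted p = 1.63e-09). Against NTC, #1 was 0.18 (adjusted p = 0.137) and #4 -0.74 (adjusted p = 8.92e-08). The call with both hairpins, -0.28, was lost without NTC replicate 3, at -0.23, and with start-site peaks centred, at -0.17. By size the difference was larger at the weaker peak chr5:43972639-43973140, at -1.12 (SE 0.26, adjusted p = 5.44e-04), with means of 36.6 ± 6.25, 75.1 ± 11.3 and 34.6 ± 9.97.

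Procr, the protein C receptor, lost accessibility at its start with #1. The gene lies at chr2:155751125-155755478 on the plus strand, and its start-site peak, chr2:155750920-155751421, holds the promoter printed above. The NTC libraries held 2062, 1996 and 2124 normalised reads there, the #1 libraries 1418, 1472 and 1502, and the #4 libraries 1881, 1981 and 1928. All #1 libraries were below all others, and #4 lay just below NTC without overlap. The means were 2061 ± 63.8, 1464 ± 42.4 and 1930.2 ± 49.9 (SD, n = 3). The log2 fold was -0.49 with #1 (adjusted p = 1.64e-10) and -0.09 with #4 (adjusted p = 0.119), and the hairpins differed by 0.40 (adjusted p = 4.27e-08). With chromosome shifts removed, #1 was -0.19 (adjusted p = 0.00188), the hairpins differed by 0.23, and the value with both, -0.29 as deposited, became -0.07 (adjusted p = 0.158).

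The largest fall of the 118 peaks lay 5.31 kb before the Procr start, at chr2:155745567-155746068. Normalised counts were 182, 167 and 165 in NTC, 60.0, 45.4 and 57.2 with hairpin #1 and 107, 88.2 and 97.0 with hairpin #4. The 3 groups did not overlap, and #1 and #4 stood at 0.316 and 0.568 of the NTC mean. The log2 fold was -1.23 with both hairpins (SE 0.14, limma adjusted p = 3.18e-09) and -1.01 with chromosome shifts removed. On the other side of the gene, chr2:155756769-155757270 fell by 0.56, or -0.34 with those shifts removed.

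Beside the end of Procr the hairpins went opposite ways. At chr2:155755627-155756128 the normalised count was 793, 801 and 776 in the NTC libraries, 627, 629 and 612 with hairpin #1 and 822, 903 and 958 with hairpin #4. Hairpin #1 lay below NTC (-0.34) and #4 above it (0.18), and they differed by 0.52 (adjusted p = 2.72e-08). With chromosome shifts removed, #1 was -0.04 (adjusted p = 0.635), #4 0.31 and their difference 0.35. Across the window, 11 of 22 Procr peaks were higher with #4 than with #1 and 1 was lower, which became 6 and 4 with chromosome shifts removed.

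Of the 22 Procr peaks, 11 lie inside another gene. The largest rise, at chr2:155722833-155723334 inside Edem2, had means of 35.9 ± 5.74, 106 ± 17.8 and 70.2 ± 20.5, a log2 fold of 1.22 (adjusted p = 2.15e-06), or 1.44 with chromosome shifts removed. The strongest, at the start of Edem2, fell by 0.27, and was -0.05 (adjusted p = 0.371) with chromosome shifts removed. Inside Mmp24, chr2:155805209-155805710 fell by 0.67, or -0.45 with those shifts removed.

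Aldh1a1, the retinaldehyde dehydrogenase, had no peak at its outermost start but a changed one at an internal start. Which start these cells use was not tested. The gene lies at chr19:20492583-20643463 on the plus strand, and 11 of its 14 peaks lie in the gene body. The peak nearest to its outermost start is 4.13 kb into the gene. The internal RefSeq start at 20601968, with its sequence above, is covered by chr19:20601619-20602120. In the NTC libraries its normalised count was 345, 350.2 and 358, with hairpin #1 268, 276 and 272, and with hairpin #4 198, 191 and 179.9. The order was NTC, #1, #4, with no overlap. The means were 351 ± 6.46, 272 ± 3.85 and 189.5 ± 9.13 (SD, n = 3), the log2 fold was -0.63 with both hairpins (SE 0.08, limma adjusted p = 3.43e-08), and #4 against #1 was -0.52. Its neighbour, chr19:20601053-20601554, was -1.04 with #4 (adjusted p = 4.06e-07) and -0.05 with #1 (adjusted p = 0.82).

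Nearer the outermost start of Aldh1a1 peaks rose and fell side by side. At chr19:20508062-20508563 the normalised count was 51.7, 42.1 and 47.5 in the NTC libraries, 76.0, 80.3 and 72.6 with hairpin #1 and 121, 116 and 95.3 with hairpin #4. The order was again NTC, #1, #4, now rising, with a log2 fold of 0.95 (SE 0.16, adjusted p = 6.43e-06). At chr19:20513051-20513552 it was 237, 240.3 and 202 in the NTC libraries, 201, 210.1 and 217 with hairpin #1 and 396, 335 and 369 with hairpin #4. Here #4 alone stood above NTC (0.69) while #1 overlapped it (-0.11, adjusted p = 0.367), and the hairpins differed by 0.80 (adjusted p = 3.14e-08). The call with both hairpins was 0.29, and was lost without NTC replicate 3, at 0.21, and with other peaks or each chromosome centred, at 0.19 for each.

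Deeper in Aldh1a1, chr19:20529873-20530374 and chr19:20531456-20531957 fell by 0.50 and 0.69 with both hairpins. At the former the normalised count was 447, 443 and 445 in the NTC libraries, 261, 259.6 and 256 with hairpin #1 and 384, 367 and 388 with hairpin #4. Here the groups did not overlap, and #1 was below #4 (#4 against #1, 0.55, adjusted p = 7.89e-07). The strongest Aldh1a1 peak, chr19:20558799-20559300, rose from 599 ± 20.9 to 752 ± 38.7 and 728 ± 33.9, a log2 fold of 0.30. Aldh1a7, a close paralogue next to Aldh1a1, could share reads with it, so peaks over similar stretches of both are uncertain. The Aldh1a7 start-site peak, outside the 50 kb window, was 0.19 with both hairpins (adjusted p = 0.229).

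Aldh1a3, the other retinaldehyde dehydrogenase, had no peak within 1 kb of either end and few calls with both hairpins. It lies at chr7:66390892-66427477. Its largest rise was inside it, at chr7:66407742-66408243. It held 312, 245 and 229 normalised reads in NTC, 518, 516 and 512 with #1 and 343, 367 and 321 with #4. Hairpin #1 stood highest, #4 lay between, and no groups overlapped. The means were 262 ± 44.1, 515 ± 3.16 and 344 ± 23.0 (SD, n = 3). The log2 fold was 0.69 with both hairpins (SE 0.08, limma adjusted p = 3.79e-09), 0.98 with #1 and 0.40 with #4, and the hairpins differed by -0.59 (adjusted p = 3.35e-06).

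Beyond the high end of Aldh1a3, chr7:66446851-66447352 fell. The NTC libraries held 425, 377 and 388 normalised reads there, the #1 libraries 241, 208 and 254, and the #4 libraries 209, 219 and 205. All hairpin libraries lay below NTC, and the hairpins overlapped, and the log2 fold was -0.83 (SE 0.08, limma adjusted p = 1.37e-10). The other side of the gene is occupied by Lrrk1, which holds 11 of the 19 peaks. The strongest of them, chr7:66375709-66376210, had means of 3362 ± 51.8, 3423 ± 168 and 3376 ± 181, a log2 fold of 0.02 (adjusted p = 0.784). Also inside Lrrk1, chr7:66384018-66384519 was 0.40 with #1 (adjusted p = 1.20e-05) and 0.11 with #4 (adjusted p = 0.214).

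**Figure D3:**
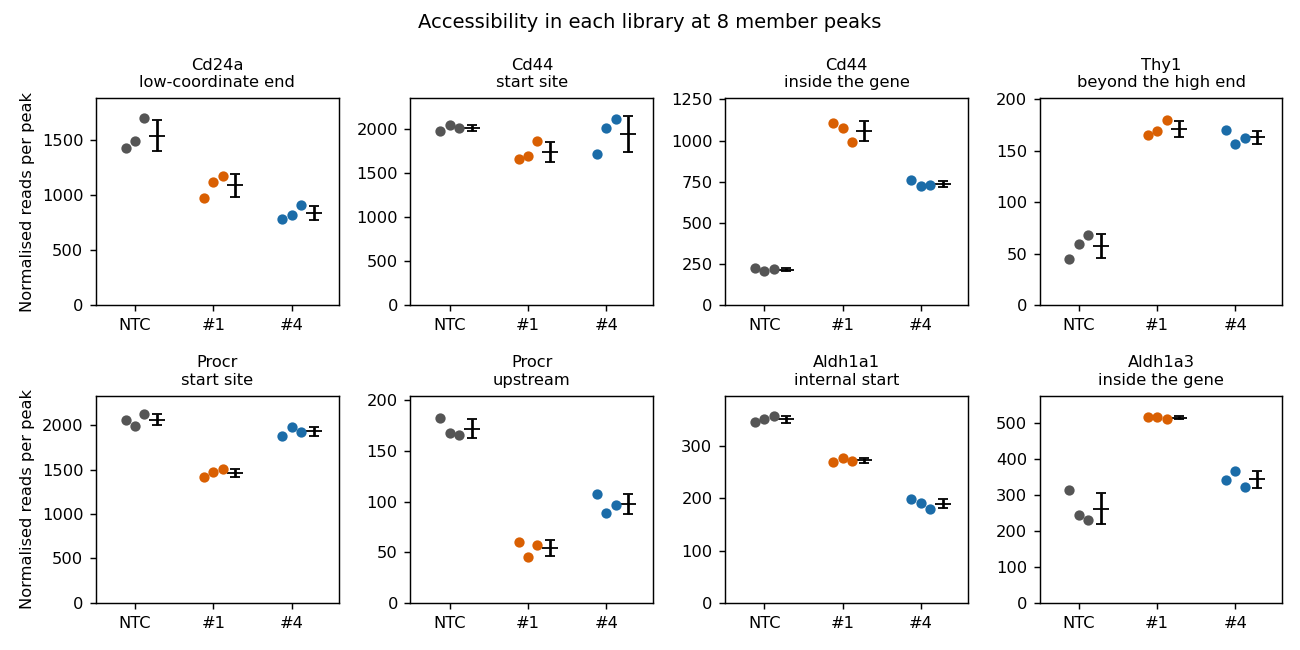
Normalised reads per peak (y axis, from 0) in each library at 8 member peaks, with the mean and SD (n = 3) beside each group. At the Cd44 start site the #4 libraries span the NTC values, while at the peak inside Cd44 the hairpin libraries, from 723 upward, are far above the NTC libraries, at most 224.

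The hairpins differed from each other at 45.8% of these peaks, a share near that of all peaks. Of the 118, 32 were higher and 22 lower with #4 than with #1 (limma, adjusted p under 0.05), beside 20.4% and 21.2% of all peaks and 41.6% in either direction. With chromosome shifts removed these counts were 22 and 29. Against NTC, #1 gave 24 higher and 36 lower calls beside 27.9% and 24.9% of all peaks (52.7% called), and #4 gave 23 and 38 beside 26.2% and 24.3% (50.4% called). With chromosome shifts removed #1 gave 29 higher and 28 lower, beside 27.1% and 23.6% of all peaks. In that setting #4 gave 26 and 35, beside 25.7% and 23%. Both comparisons share the NTC libraries. The number called with #1 and not with #4 was 20, the number called with #4 and not with #1 was 21, and 37 were called with neither. The 3 peaks called in opposite directions, beside 3.17% of all peaks, were those at Cd24a, Thy1 and Procr given above.

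**Figure D4:**
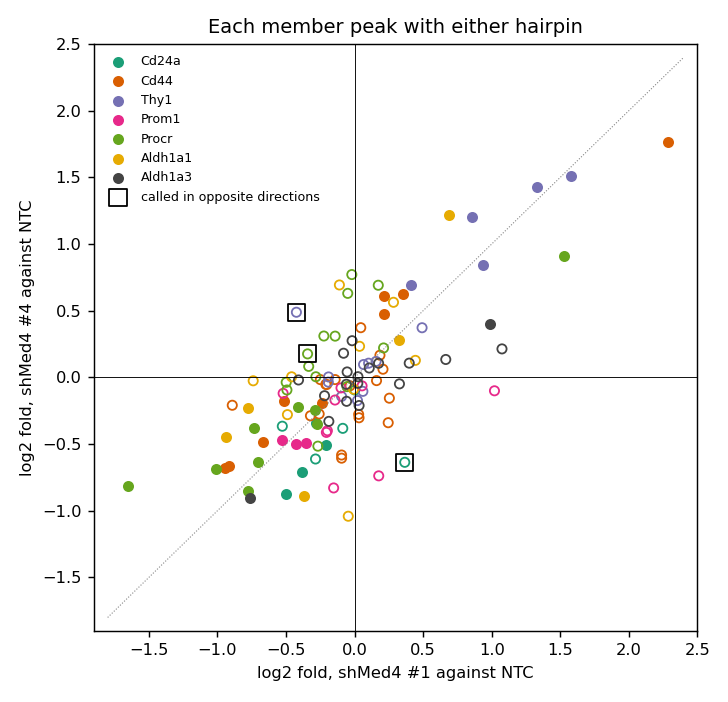
Log2 fold of each of the 118 peaks with shMed4 #1 (x axis) and shMed4 #4 (y axis) against the same NTC libraries; filled points were called with each hairpin in the same direction, squares mark the 3 called in opposite directions, and the dotted line marks equal folds. The peak inside Cd44 lies at the upper right (2.28 and 1.77) and the peak before the Procr start at the far left (-1.65 and -0.81).

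Level and position varied among the members. The median NTC value of the 118 peaks was 277, beside 184 over all peaks, and single peaks ran from 22 at Aldh1a3 to 5367 at Cd44. The 4 start-site or gene-end peaks taken as 1 per gene stood at 2061 for Procr, 2005 for Cd44, 1540.3 for Cd24a and 101 for Thy1 in NTC, and the median over 11510 genes was 1273. Procr and Cd44 did not differ beyond their spread, with SDs of 63.8 and 32.8, and Thy1 lay far below the other 3. No strand was given for Thy1 or Cd24a, so their peaks may not stand at a start, and the low Thy1 value is not read as that of its promoter. With both hairpins, 27.9% of all peaks were called higher and 26.2% lower, and of start-site peaks at 1 per gene, 10.0% and 45.7%. Peaks between genes gave 7 higher and 22 lower calls of 50, peaks inside another gene 6 and 7 of 32, peaks inside the member 8 and 8 of 31, and peaks at a start site or gene end 1 and 4 of 5. In the same order the counts were 9 and 20, 7 and 8, 12 and 7, and 1 and 2 with chromosome shifts removed, and 11 and 14, 9 and 6, 13 and 6, and 1 and 3 with start-site peaks centred.

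Other surface proteins of mammary stem and luminal progenitor cells showed no common direction. Of 25 genes, 12 had a start-site or gene-end peak, and 5 rose and 3 fell with both hairpins, beside 10.0% higher and 45.7% lower of the 11510 genes with such a peak. Their median log2 fold was -0.00, beside -0.11 over all genes. Itgb3, the integrin subunit used to sort luminal progenitors, went from 213 ± 35.4 in NTC to 535 ± 28.1 with #1 and 493 ± 6.08 with #4, a log2 fold of 1.28 (limma adjusted p = 1.61e-16). Tspan8, a tetraspanin, rose by 1.16 from an NTC mean of 51.8, and Itga2, another integrin subunit, by 0.52. Alcam, an adhesion molecule, fell by 0.73, and Itga6, the integrin of basal cells, by 0.35. Itga6 lies on chromosome 2, and its call was lost with chromosome shifts removed, at -0.13 (adjusted p = 0.0624). With each chromosome centred the counts were 3 higher and 6 lower.

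Genes that make, cut or answer to hyaluronan, and other partners of CD44, gave 2 higher and 9 lower calls among 18 with a peak, of 25. That stands beside 10.0% higher and 45.7% lower of all genes with such a peak, and the median was -0.13 beside -0.11. Cemip, which degrades hyaluronan, went from 95.5 ± 8.0 in NTC to 247 ± 19.9 and 209 ± 31.4, a log2 fold of 1.24 (limma adjusted p = 5.40e-12). Hyal2, a hyaluronidase, rose by 0.36 with both hairpins, at 0.65 with #1 and 0.06 with #4 (adjusted p = 0.619). Has3, a hyaluronan synthase, fell by 0.96, and Cd74, which pairs with CD44 as a receptor, by 0.72. Ank3, which links membrane proteins to the cytoskeleton, fell by 0.82, and Esrp2, a splicing regulator of Cd44, from 555 ± 12.4 to 340.0 ± 29.6 and 426 ± 68.1, a log2 fold of -0.55. With start-site peaks centred the counts were 4 higher and 4 lower.

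Ligands, signalling partners and coagulation factors tied to CD24, THY1 and PROCR split into 5 higher and 6 lower among 17 with a peak, of 28. The shares over all genes were 10.0% and 45.7%, and the median was -0.08 beside -0.11. Selp, the P-selectin that binds CD24, went from 547 ± 38.4 in NTC to 1173 ± 28.3 and 918 ± 22.3, a log2 fold of 0.92 (limma adjusted p = 3.98e-17). Sele, another selectin, rose by 0.66, and Proc, which encodes protein C, the ligand of PROCR, by 0.59. S1pr1, a sphingosine phosphate receptor, was 66.2 ± 6.12 in NTC, 73.9 ± 1.87 with #1 and 199.6 ± 25.7 with #4, so that #1 was 0.16 (adjusted p = 0.425) and #4 1.57 (adjusted p = 2.36e-10). Sdc4, a syndecan, fell by 0.32, and Pag1 and Fyn, which sit with THY1 in lipid rafts, by 0.30 and 0.13. Sdc4 was -0.52 with #1 and -0.11 with #4 (adjusted p = 0.114). Fyn was called with neither hairpin alone, at -0.13 with each (adjusted p = 0.0825 with #1 and 0.0781 with #4). With chromosome shifts removed Fyn was called with #1, at -0.19 (adjusted p = 0.00929), and not with #4, at -0.08 (adjusted p = 0.32). With chromosome shifts removed 3 of the 17 fell, and Sdc4, on chromosome 2, was not among them, at -0.095 (adjusted p = 0.118).

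In the retinoid pathway around the 2 ALDH enzymes, 0 genes rose and 6 fell among 10 with a peak, of 23. Over all genes 10.0% were higher and 45.7% lower, and the median of -0.12 was close to the -0.11 of all genes. Rxra, a retinoid X receptor, went from 395 ± 11 to 286 ± 10.1 and 293 ± 33.7, a log2 fold of -0.45 (limma adjusted p = 7.42e-06). Rdh11, which interconverts retinol and retinaldehyde, fell by 0.33, Dhrs9, a related dehydrogenase, by 0.20, and Fabp5, which carries retinoic acid, by 0.20. Rarg fell by 0.13, and Rxrb by 0.11 at a peak it shares with another gene. Fabp5 and Rxrb were not called with #1 alone, at -0.10 and -0.09 (adjusted p = 0.144 and 0.172). Rarg was not called with #4 alone, at -0.09 (adjusted p = 0.195), but was with chromosome shifts removed, at -0.20 (adjusted p = 0.00458). Rxra and Dhrs9 lie on chromosome 2: with chromosome shifts removed Rxra was -0.23 (adjusted p = 0.0125), and Dhrs9 was 0.02 (adjusted p = 0.757) and lost its call. Rdh11 was then -0.15. With start-site peaks centred 2 rose and 2 fell.

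Transcription factors of mammary progenitors gave 3 higher and 8 lower calls among 17 with a peak, of 26. The median was -0.15 beside -0.11 over all genes, of which 10.0% were higher and 45.7% lower. Runx2 went from 919 ± 32.5 to 1209 ± 61.2 and 1116 ± 51.5, a log2 fold of 0.34, and Elf3 and Runx1 rose by 0.12 and 0.10. Elf3 was 0.14 with #1 and 0.11 with #4 (limma adjusted p = 0.0666 with #4). Runx1 was 0.06 with #1 (adjusted p = 0.297) and 0.14 with #4. Twist1 fell by 0.36, Bmi1 by 0.31, Snai2 by 0.20 and Sox9 by 0.15. Sox9 was -0.10 with #1 (adjusted p = 0.16) and -0.21 with #4. Twist1 was -0.18 with chromosome shifts removed, while the calls were then lost at Bmi1, on chromosome 2, at -0.09 (adjusted p = 0.219), at Sox9, at -0.07, at Elf3, at 0.02, and at Runx1, at 0.07. Hey1, a Notch target, fell by 0.41 at a peak it shares with another gene. With start-site peaks centred 6 rose and 4 fell.

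Likeness over the 9 libraries was measured by Pearson's r between log2 values of start-site or gene-end peaks, as a description among 11461 genes. The Cd24a peak was most like those of Pip5k1b and Gm20517 (each r = 0.987), and 178 genes passed 0.95. For Cd44 they were Cyb5a (0.989) and Mavs (0.987), with 70 genes past 0.95. For Thy1 they were Nmnat2 (0.986) and Art3 (0.983), with 74, and for Procr Chil1 (0.991) and Mylk (0.987), with 89. These points share the 3 groups, so r follows mainly the order of the group means: Chil1 stood at 80.6, 30.2 and 62.0 in NTC, #1 and #4, the same order as Procr.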

How the data were processed

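ATAC-seq libraries of D2A1-d cells were analysed from a deposited table of signal per peak: read counts in 146734 peaks that the authors normalised with DESeq2, per the file name. Per the submitters' processing notes, the tools were MACS2, featureCounts (Subread), BWA and Trim Galore, no version being stated, on mm10 (GRCm38). The sources used here do not say if replicates were pooled for peak calling, or if the coordinates, printed as the peak names have them, count from 0. Depth was read from the step between values of a library (100% of values within 0.001 of a whole read), and libraries held 44.8 to 98.9 M reads in peaks.

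The 7 genes and the further lists were chosen with earlier results of these data known. Gene positions and strands came from RefSeq. Of its 21631 protein-coding genes, 79.9% had a strand. A start-site peak is the strongest whose centre lies within 1 kb of the start, or of either end where no strand was given, as for Cd24a, Thy1 and Aldh1a3. Whether a peak is exonic or intronic was not analysed here.

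Tests used limma 3.58.1 in R 4.3.3 (lmFit, then eBayes with its trend option) on log2(value + 1). The fit took 146729 peaks with a mean of at least 10 in all 9 libraries, with a mean per group, and calls needed a Benjamini-Hochberg adjusted p under 0.05 over all peaks. NTC was compared with the mean of the 2 hairpin groups and with either hairpin alone, and #4 with #1. The pipeline was tested on simulated data. For each gene the naming rule took the start-site peak, the strongest peak, the highest and lowest called log2 fold at a mean of at least 50, and the peak with the lowest p between the hairpins; for each list it took the 3 genes with the lowest p. Other peaks and genes named were chosen after their values were seen. Motifs were sought in the 250 bases before each start, where the design named 300. Alternatives changed the pseudocount, filter, scaling, threshold, window, fit and libraries. Tables were handled with pandas 2.3.3, data.table (version 1.17.8) and numpy 2.4.6 in Python 3.11.15, and plots drawn with matplotlib 3.10.9.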

Additional observations from a re-analysis of the deposited data

How the results depend on the processing

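Pseudocounts of 0.5 and 8, no filter or a mean of at least 50, and fits on only the groups compared kept every count of member calls within 1.5 times its value, as did leaving out any library. Without 1 library each, the counts with both hairpins ran from 19 to 26 higher and from 37 to 43 lower. The window set the counts: within 10 kb, higher and lower calls were 14 and 23 with both hairpins, 14 and 18 with #1, 15 and 21 with #4, and 21 and 13 for #4 against #1. Within 100 kb they were 46 and 81, 51 and 68, 43 and 69, and 61 and 45. The number of peaks in these windows is not given here. These counts are therefore not read against the 27.9% higher and 26.2% lower of all peaks with both hairpins. Among the 72 peaks nearest to the member, 14 were higher with both hairpins, 25 lower with #4 and 14 lower for #4 against #1. The shares over all peaks were 27.9%, 24.3% and 21.2%. The opposite directions are not given for these 72 peaks, so no balance is read from their counts. With start-site peaks centred, 34 of the 118 peaks were higher with both hairpins, and 35 higher and 24 lower with #4. Other peaks centred gave 15 higher with #1, and each chromosome centred gave 20 higher for #4 against #1.

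The further lists moved with the scaling too. With start-site peaks centred, higher and lower calls were 4 and 4 for hyaluronan genes, 6 and 4 for transcription factors and 2 and 2 for the retinoid pathway, and 2 partners of CD24, THY1 and PROCR were lower. With each chromosome centred, 3 surface markers were higher and 6 lower, 1 hyaluronan gene and 1 transcription factor were higher, and 10 partners were lower. With other peaks centred 1 transcription factor was higher and 5 surface markers lower. With chromosome shifts removed 3 partners and 5 transcription factors were lower.

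Several small log2 folds with both hairpins changed sign. At the Cd44 start site and the strongest Cd44 peak, removing chromosome shifts gave 0.0897 and 0.0873. The strongest Thy1 peak was -0.0411 with each chromosome centred. The Thy1 peak called in opposite directions was -0.15 with each chromosome centred, -0.0655 with other peaks centred and -0.0436 with chromosome shifts removed, and -0.0130 to 0.0797 without 1 library. The strongest Prom1 peak was 0.0252 with start-site peaks centred. The Procr peak called in opposite directions was 0.0445 with each chromosome centred, 0.0310 with start-site peaks centred and 0.14 with chromosome shifts removed. The strongest Aldh1a3 peak was -0.15 with each chromosome centred, -0.0827 with other peaks centred, -0.0462 with chromosome shifts removed and -0.0011 with equal totals, and -0.0033 to 0.0356 without 1 library. The cause of these changes was not tested beyond the construction of each scaling.

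Same-numbered libraries of different groups did not deviate together, with correlations from -0.011 to 0.073 over 9 pairs and from -0.103 to 0.041 over the other 18, so the numbers are not taken to pair them. With the replicate number as a block, 0 of 8 counts moved by over 1.5 times and 1 of 34 named folds changed its call: the strongest Prom1 peak, at -0.09, passed (limma adjusted p = 0.0456). edgeR and DESeq2 on whole reads recovered from the normalised values were planned as alternatives and not run; the recovered reads served to give the depth. Peaks near the low end of the range, such as the Aldh1a3 peak at 22 in NTC, can have standard errors of 0.31 on the log2 scale, so small differences were not detectable there.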

Other observations

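The windows around the members also hold start-site peaks of genes next to them, and those of Mtres1, Usp2, Edem2 and Lrrk1 are among the 118 peaks counted above. Edem2, beside Procr, is described above and is 1 of the 11 lower calls with both hairpins at Procr. Mtres1, which lies beside Cd24a, was 1503 ± 132 in NTC, 1244 ± 193 with #1 and 1189 ± 155 with #4 (SD, n = 3), a log2 fold of -0.31 with both hairpins (limma adjusted p = 0.000262), and is 1 of the 6 lower calls at Cd24a. Usp2, beyond the high end of Thy1, was 1555 ± 143, 1618 ± 49.6 and 1450.1 ± 189, a log2 fold of -0.02 (adjusted p = 0.773), while 4 peaks between it and Thy1 rose. Lrrk1, beside Aldh1a3, was 525 ± 17.7, 506 ± 44.9 and 542 ± 57.8, a log2 fold of -0.01 (adjusted p = 0.944). Slc1a2, Fgfbp1 and Mmp24, next to Cd44, Prom1 and Procr, had no peak at their starts.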
